A study of Mus musculus with 12 samples.

Results

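The genes described here encode the voltage-gated sodium and calcium channels: the pore-forming subunits, Scn1a to Scn9a and Cacna1a to Cacna1i, and their auxiliary subunits. They were taken by name and protein-coding biotype from the list of genes deposited with the YTHDF1 comparison, and 32 of the 16716 genes listed there qualified, 15 of them pore subunits and 17 auxiliary subunits. The count table holds 40 genes with such names. The other 8 (Cacna1f, Cacna1s, Cacng1, Cacng6, Scn10a, Scn11a, Scn4a and Scn4b) were not in that list, and none had more than 13 reads in any library. Hippocampal neurons from newborn C57BL/6 mice were cultured for 14 days, and RNA was sequenced after immunoprecipitation (RIP) of the endogenous YTHDF1, YTHDF2 or YTHDF3 protein and from a part of the same lysates taken before the antibody (Input). A value given with YTHDF1, for example, is that of the YTHDF1 RIP. Each of the 4 groups held 3 libraries, and the cultures had been given Ara-C against dividing glia, so all groups share the strain, age and treatment. Enrichment here means RIP over total lysate RNA. A control-antibody RIP was not analysed here, and nonspecific binding was not tested.

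YTHDF1, YTHDF2 and YTHDF3 are cytoplasmic proteins whose YTH domain binds mRNA that carries N6-methyladenosine (m6A), a base modification placed mostly at the consensus DRACH, of which GGACT, with U for T in RNA, is a frequent form. Voltage-gated sodium channels start the action potential, and voltage-gated calcium channels turn it into calcium entry that drives transmitter release and gene expression. In both families a single large pore protein, called alpha for sodium channels and alpha1 for calcium channels, forms the pore and senses voltage. Auxiliary subunits (sodium channel beta; calcium channel beta, alpha2delta and gamma) set how many channels reach the membrane and how they gate. Several gamma subunits also serve as TARPs, the partners of AMPA-type glutamate receptors.

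All 32 members held GGACT at least once in their longest coding transcript (GENCODE annotation of GRCm38), as did 92.6% of the 13337 tested genes with such a transcript. The motif was searched on the transcript strand only. Pore subunit transcripts held a median of 10 copies and auxiliary transcripts 4, but per kilobase the medians were 1.09 and 0.964, beside 1.04 over all tested genes. The 21-base windows below surround the copy nearest the stop codon within the coding sequence, with GGACT in capitals. They are shown for the 5 most abundant sodium channel pores, for the 4 genes called in the same direction in every RIP, and for Cacng2 and Cacng7, which separated the RIPs. Scn3b has no copy in the coding sequence.
Scn1a (chr2:66273721-66273741, minus strand): gctgggatGGACTgctggccc
Scn2a (chr2:65763955-65763975, plus strand): gctgggatGGACTgctggccc
Scn3a (chr2:65461396-65461416, minus strand): gctgggatGGACTgttggccc
Scn8a (chr15:101039939-101039959, plus strand): ttcaaaggGGACTgcgggaac
Scn9a (chr2:66484183-66484203, minus strand): gtggaaggGGACTgtggaaat
Cacna1b (chr2:24606623-24606643, minus strand): gcactttgGGACTcagcactg
Cacna1d (chr14:30042154-30042174, minus strand): gagctccaGGACTttggtcct
Cacna1h (chr17:25375186-25375206, minus strand): aggagcaaGGACTgtacctca
Cacnb3 (chr15:98643494-98643514, plus strand): ctagcccaGGACTcggagcat
Cacng2 (chr15:77995185-77995205, minus strand): gacagcaaGGACTctctccac
Cacng7 (chr7:3336666-3336686, plus strand): gtcagcacGGACTactggctg
Each window lies within a single coding exon. Scn1a and Scn2a were identical over all 21 bases, and Scn3a differed from both by C15T, counted from 1 at the 5′ end of the window. Scn1a, Scn2a, Scn3a and Scn9a are close relatives that neighbour each other on chromosome 2. Of the 50-base words in its transcript, Scn3a shared 8.05% with another member, Scn2a 7.59%, Scn1a 5.41% and Scn9a 5.36%. Reads that mapped to several places had been counted at each of them, so a small part of the counts of these 4 genes cannot be assigned to a single gene. Cacng8 overlaps the short gene Gm23450 on the same strand, and reads there were counted for both.

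Total counts per library were 9092494 to 13833973 for Input, 10037804 to 38909592 for YTHDF1 RIP, 6020072 to 9259893 for YTHDF2 RIP and 21395271 to 22400602 for YTHDF3 RIP. All values per library below are TMM-normalized CPM, counts scaled to a fixed library total (normalized CPM), given for replicates 1, 2 and 3. The cultures expressed the markers of neurons (8 of 8 tested, 2655 to 4267 normalized CPM in sum over the Input libraries) but also those of astrocytes (6 of 6, 997 to 3331), while the markers of microglia and endothelium summed to at most 3.97 and 3.24 in any library. Input replicate 3 had the lowest neuronal sum and the highest astrocyte sum (3331), and the same replicate had the lowest median of pore subunits among the Input libraries, 0.36 below the Input mean on the log2 scale. In bulk RNA, fewer neurons and less channel mRNA per neuron cannot be told apart. Of the 8 neuronal markers, 1 was higher and 0 were lower with YTHDF1 than in Input, 0 were higher and 1 was lower with YTHDF2, and 1 was higher and 0 were lower with YTHDF3. None of the 6 astrocyte markers was called in any RIP. The oligodendrocyte lineage list summed to 18.1 to 135 in Input, 161 to 466 with YTHDF1, 229 to 382 with YTHDF2 and 19.2 to 276 with YTHDF3, with 1 of 4 tested genes higher and 1 lower with YTHDF1. The skeletal or heart muscle list summed to 5.04 to 7.01 in Input and to 12 to 20, 14.0 to 16.7 and 8.0 to 9.1 in the 3 RIPs, with 3, 2 and 1 of 3 tested genes higher. For all these lists, the shares of all tested genes higher with YTHDF1, YTHDF2 and YTHDF3 were 27.5%, 16.1% and 16.7%. Those lower were 26.1%, 19.3% and 23.2%. The part the genes of the oligodendrocyte and muscle lists play in the results was not tested. The peripheral sensory neuron list (Prph, Trpv1 and Calca) summed to at most 5.08 in every library, with no call in its 1 tested gene.

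In Input, per kilobase of exon, the most abundant member was Scn2a, the main sodium channel pore of young excitatory neurons, at 24.1 ± 7.31 normalized CPM per kilobase (SD, n = 3). Scn3b, which encodes a beta subunit of sodium channels, had 22.7 ± 1.70, and the pair did not differ beyond their spread. Next came Cacnb3, a cytoplasmic beta subunit that carries calcium channels to the membrane, at 18.4 ± 2.55 and Cacna1b, the N-type pore of presynaptic terminals, at 17.5 ± 3.49. The synaptic TARPs Cacng7, Cacng4 and Cacng8 lay between 15.9 ± 3.52 and 17 ± 1.57, Cacnb1 at 15.1 ± 1.77, the P/Q-type pore Cacna1a at 13.4 ± 2.10, Scn8a at 12.8 ± 3.54, Scn2b at 11.8 ± 6.17 and the R-type pore Cacna1e at 10.6 ± 2.52. Between 5 and 10 normalized CPM per kilobase stood Cacna2d1 (9.09 ± 2.57), Cacna2d3 (8.15 ± 1.68), Cacna1c (7.83 ± 1.58), Cacna1h (7.58 ± 0.409), Cacng3 (6.4 ± 4.06), Cacng2 (6.39 ± 2.2), Cacnb4 (6.06 ± 2.91) and Scn3a (5.4 ± 0.803), whose neighbours did not differ beyond their spread. Cacna1g (4.89 ± 0.795), Cacna1d (4.25 ± 0.252), Scn1a (3.18 ± 1.39), Cacng5 (3.04 ± 1.39), Cacna1i (2.49 ± 0.692), Cacnb2 (2.34 ± 1.01) and Cacna2d2 (1.44 ± 0.366) followed. The lowest were Scn9a (0.173 ± 0.0203), best known from peripheral sensory neurons, Cacna2d4 (0.087 ± 0.0297) and Scn7a (0.0356 ± 0.0243), a sodium-sensing channel that is atypical for the family. Scn7a rested on 1 to 6 reads per Input library. All 32 members passed the filter on low counts (mean of 10 or more after scaling), and Scn7a was the lowest at 11.9. It passed through the YTHDF1 RIP, with a mean of 29.6 there, 3.66 to 8.26 in the other groups and 6.00 over the libraries outside the YTHDF1 RIP, so its values with YTHDF1 are given as a description and support nothing. The other 31 members passed with any group left out.

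Most pore subunit mRNAs were called enriched with YTHDF1 and YTHDF3 and a minority with YTHDF2, and most auxiliary subunit mRNAs were not called in any RIP. The share of all genes called was also highest with YTHDF1. Enrichment and depletion over Input were called at a log2 fold change of at least 0.32 in either direction with an adjusted p of at most 0.05 (edgeR's quasi-likelihood test with Benjamini-Hochberg adjustment over 16820 genes). With YTHDF1 13 of 15 pore subunits were enriched and 0 depleted, and 2 of 17 auxiliary subunits were enriched and 1 depleted, where 27.5% of all tested genes were enriched and 26.1% depleted. Without Scn7a, 12 of 14 pore subunits were enriched with YTHDF1, with a median log2 fold change of 1.38. With YTHDF3 10 pore subunits were enriched and 0 depleted, and 0 auxiliary subunits were enriched and 2 depleted (all genes, 16.7% and 23.2%). With YTHDF2 4 pore subunits were enriched and 0 depleted, and 0 auxiliary subunits were enriched and 3 depleted (all genes, 16.1% and 19.3%). The median log2 fold changes of the pore subunits were 1.42, 0.77 and 1.05 with YTHDF1, YTHDF2 and YTHDF3, those of the auxiliary subunits 0.36, -0.31 and 0.17, and those of all tested genes 0.02, 0.02 and 0.05. All 15 pore subunits lay above 0 in each RIP. The replicate number was also used as a block, which pairs each RIP with the Input of the same number. Enriched and depleted members then numbered 15 and 2 with YTHDF1 (all genes, 26.9% and 25.8%), against 15 and 1 without it. They numbered 3 and 3 with YTHDF2 (15.7% and 18.5%), against 4 and 3. They numbered 9 and 2 with YTHDF3 (16.5% and 22.7%), against 10 and 2. When the YTHDF1 RIP and Input libraries were fitted alone with the block, 5 members were enriched (Scn1a, Scn3a, Scn9a, Cacna2d1 and Scn7a) and 0 depleted, where 14.2% of all genes were enriched. Without replicate 3 of the YTHDF1 RIP, the deepest library, 10 members were enriched and 4 depleted with YTHDF1, and without Input replicate 3 the depleted members also numbered 4. For fits that leave out a library, the shares of all genes called are not given, so these counts cannot be set against them.

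**Figure D1:**
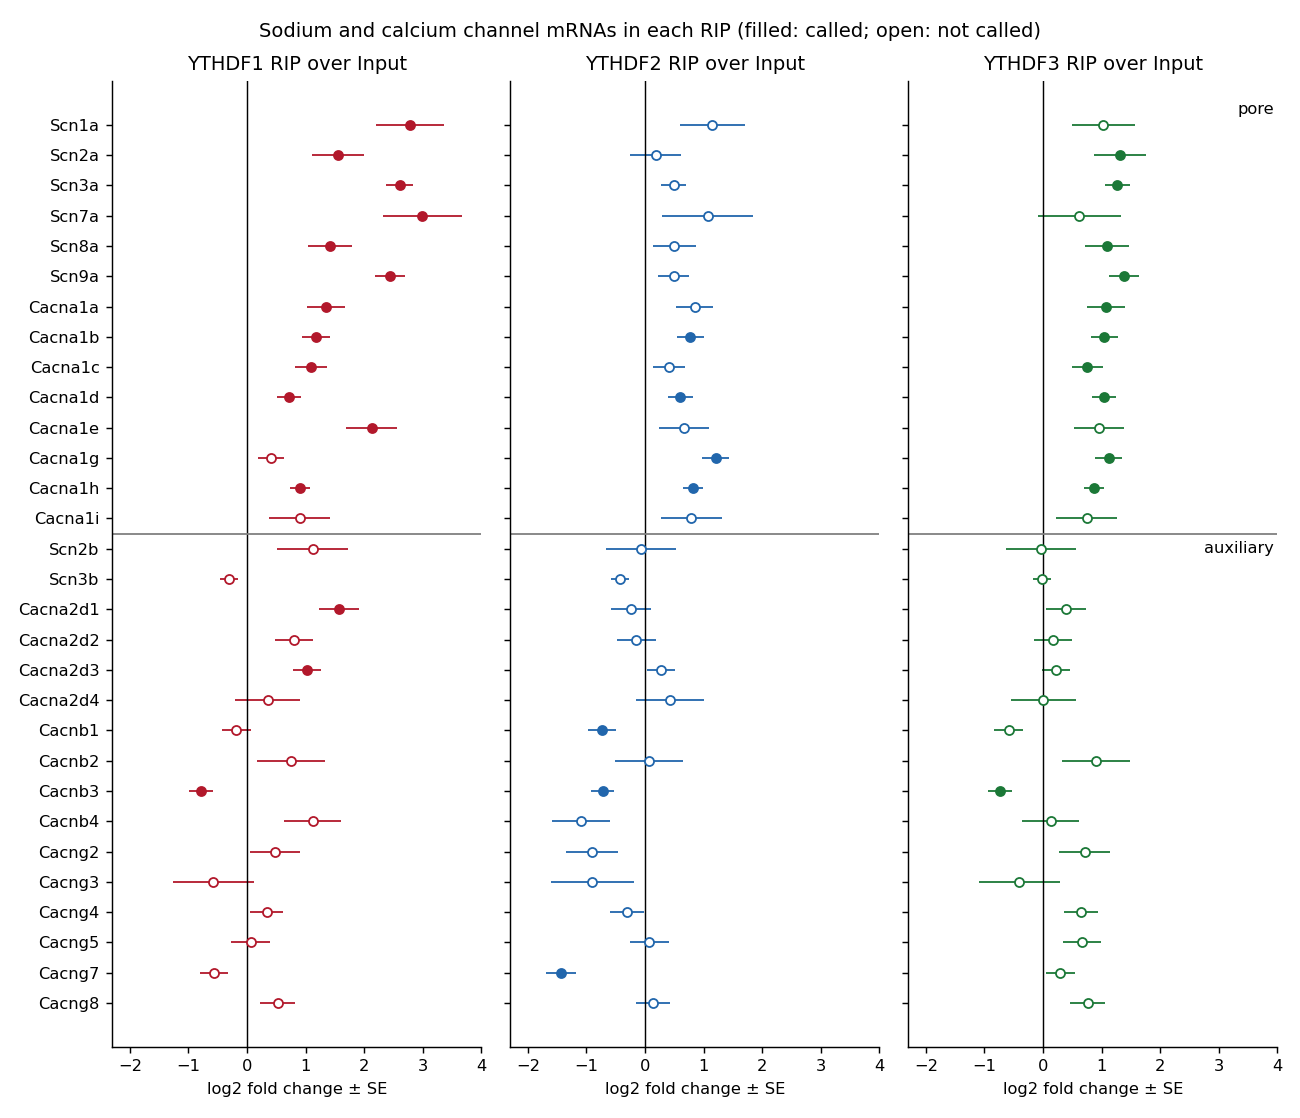
Log2 fold change over Input of the member genes reported by name (rows) in the YTHDF1, YTHDF2 and YTHDF3 RIP (panels), with standard errors as bars; filled points were called at a log2 change of 0.32 and an adjusted p of 0.05, open points were not, and the grey line separates pore from auxiliary subunit genes. All pore subunit points lie to the right of 0 in each panel, and the auxiliary points lie on both sides.

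The contrast between pore and auxiliary subunits was present in each RIP library. Each gene was set relative to its own Input mean. The difference is therefore near 0 in Input by construction, and the Input libraries show only its spread. The median of the pore subunits minus that of the auxiliary subunits, on the log2 scale, was -0.04, -0.06 and 0.09 in the Input libraries. It was 0.78, 1.00 and 1.67 with YTHDF1, 1.16, 1.15 and 0.89 with YTHDF2, and 0.86, 0.83 and 0.77 with YTHDF3. All RIP libraries lay above the spread of the Input libraries. The YTHDF1 RIP had the widest spread, through its replicate 3, in which the pore median stood 2.06 above the Input mean, against 1.26 and 0.76 in the other two. The pore medians of the YTHDF3 RIP libraries followed those of the Input libraries of the same number, with replicate 3 lowest in both groups.

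**Figure D2:**
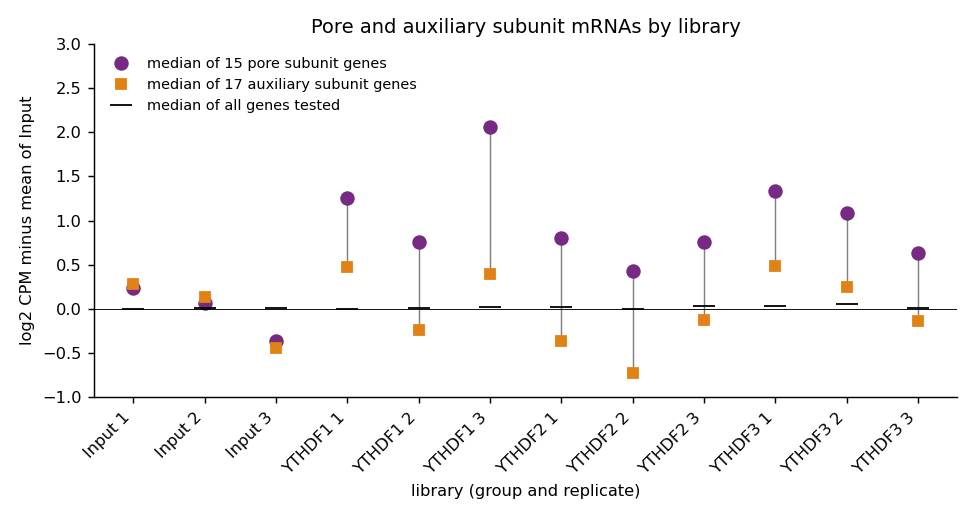
Median log2 CPM relative to the mean of Input (y axis) for pore subunit genes (circles), auxiliary subunit genes (squares) and all tested genes (bars) in each of the 12 libraries (x axis). The 2 class medians lie within 0.09 of each other in the Input libraries and at least 0.77 apart in the RIP libraries. Since each gene is relative to its Input mean, the closeness in Input is by construction.

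All 6 sodium channel pore genes other than Scn7a were enriched with YTHDF1, with log2 fold changes between 1.42 and 2.78. Scn3a, the pore that prevails before birth, had 80.2, 64.6 and 61.0 normalized CPM in Input and 302, 493 and 458 with YTHDF1, a log2 fold change of 2.61 ± 0.23 (SE; adjusted p = 8.43e-06), or 6.09-fold. Scn9a went from 2.44, 2.27 and 1.93 in Input to 11.6, 9.74 and 14.9 (2.44 ± 0.26, adjusted p = 2.53e-05). For both genes the RIP libraries lay far above all Input libraries. Of all genes, 28% had every YTHDF1 RIP library above every Input library. Scn1a, the pore characteristic of inhibitory interneurons, had 50.9, 35.7 and 19.8 in Input and 245, 99.2 and 390.0 with YTHDF1 (2.78 ± 0.57, adjusted p = 0.0018). Its RIP libraries were spread widely, with replicate 2 lowest, yet none overlapped Input. Scn2a had 398, 312 and 212 in Input and 710.2, 497 and 1509 with YTHDF1 (1.56 ± 0.44, adjusted p = 0.0113). Scn8a, the pore of mature axon initial segments and nodes, had 255, 206 and 144 in Input and 480.1, 318 and 817 (1.42 ± 0.37, adjusted p = 0.00748). In both, replicate 3 of the RIP was highest by far. Scn7a had 0.457, 0.22 and 0.107 in Input and 1.04, 1.42 and 3.97 with YTHDF1, on the few Input reads given above, and it was kept by the filter through these YTHDF1 RIP libraries. Of the calls named here, those for Scn2a and Scn8a were lost without single libraries. Without YTHDF1 RIP replicate 3 the log2 fold changes were 0.88 for Scn2a and 0.90 for Scn8a, and without Input replicate 3 that of Scn2a was 1.24 and not called. With the 2 groups alone and the block both calls were lost as well (adjusted p = 0.111 and 0.0935).

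Among the 8 calcium channel pore genes, 6 were enriched with YTHDF1. Cacna1e, the R-type pore, changed most, from 306, 299.5 and 193 normalized CPM in Input to 760.4, 675 and 2066 in the RIP (2.13 ± 0.44, adjusted p = 0.00171). Cacna1a rose from 193, 161 and 141 to 384, 263 and 612 (1.35 ± 0.32, adjusted p = 0.00457). Cacna1b rose from 214, 151 and 157 to 381, 313 and 488 (1.18 ± 0.23, adjusted p = 0.0013). The L-type pores Cacna1c and Cacna1d, which couple activity to transcription, rose by 1.09 ± 0.27 and 0.72 ± 0.21 on the log2 scale. Of the T-type pores, which open near rest, Cacna1h had 76.2, 69.4 and 76.5 in Input and 159, 109 and 146 in the RIP (0.90 ± 0.17, adjusted p = 0.000994). Cacna1g had 54.7, 53.8 and 40.3 in Input and 85.2, 47.0 and 65.9 in the RIP, groups that overlapped (0.41 ± 0.23, adjusted p = 0.152), and Cacna1i was not called either (0.90 ± 0.52, adjusted p = 0.166). When single libraries were left out, the call for Cacna1d was lost without Input replicate 3 (0.57) or YTHDF1 RIP replicate 3 (0.61). All 6 calls were lost when the 2 groups were fitted alone with the block, at log2 fold changes of 0.62 for Cacna1d to 1.83 for Cacna1e and adjusted p from 0.0518 for Cacna1e to 0.13 for Cacna1d. None of the 6 stayed enriched when the trend with transcript length, described below, was removed.

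With YTHDF3 the 10 enriched pore genes had log2 fold changes from 0.76 to 1.38. Of the sodium channel pores 4 of 7 were called. Scn9a had 6.99, 5.22 and 5.19 normalized CPM (1.38 ± 0.25, adjusted p = 0.00118), Scn2a 988, 763 and 536 (1.31 ± 0.44, adjusted p = 0.0333), Scn3a 186, 162 and 149 (1.27 ± 0.22, adjusted p = 0.000835) and Scn8a 571, 429 and 290.1 (1.09 ± 0.37, adjusted p = 0.0343). In each of the 4 all YTHDF3 RIP libraries exceeded all Input libraries, as in 26.8% of all genes. Scn1a, with 112, 69.9 and 36.3, overlapped Input (1.03 ± 0.54, adjusted p = 0.155), and Scn7a, with 0.349, 0.481 and 0.43, was not called (0.62 ± 0.71). Of the calcium channel pores 6 of 8 were called. Cacna1g had 119, 109 and 95.5 (1.12 ± 0.23, adjusted p = 0.00263), and Cacna1a 430.1, 356 and 254 (1.07 ± 0.32, adjusted p = 0.0204). Cacna1b had 435, 364 and 280.4 (1.05 ± 0.23, adjusted p = 0.00384), Cacna1d rose by 1.05 ± 0.21 (adjusted p = 0.0021), Cacna1h had 149, 134 and 122 (0.87 ± 0.17, adjusted p = 0.00184), and Cacna1c rose by 0.76 ± 0.27 (adjusted p = 0.0421). Cacna1e, with 635, 522 and 397, lay above Input in every library but was not called (0.96 ± 0.42, adjusted p = 0.0925). With the replicate block the call for Cacna1c was lost (adjusted p = 0.061). When the YTHDF3 RIP and Input libraries were fitted alone with the block, 21 members were enriched, 14 pore and 7 auxiliary subunits, with Scn7a the single pore subunit not called, where 36.5% of all genes were enriched.

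The calls for Scn2a, Scn8a and Cacna1a with YTHDF3 each depended on Input replicates 2 and 3 and YTHDF3 RIP replicates 1 and 2, without any of which they were lost, at log2 fold changes of 1.08 to 1.32, 0.83 to 1.1 and 0.89 to 1.05. The call for Cacna1c was lost without any Input library, YTHDF2 RIP replicate 3, or YTHDF3 RIP replicates 1 or 2, at 0.63 to 0.85. Without Input replicate 2, YTHDF3 RIP replicate 1 or YTHDF3 RIP replicate 2, 6 members in all were enriched. The calls for Cacna1b, Cacna1d, Cacna1g, Cacna1h, Scn3a and Scn9a were kept whichever library was left out.

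With YTHDF2 4 of 8 calcium channel pores and 0 of 7 sodium channel pores were called enriched. Cacna1g was highest, with 132, 118 and 95.1 normalized CPM against 54.7, 53.8 and 40.3 in Input (1.21 ± 0.23, adjusted p = 0.00237). Cacna1h had 134, 133 and 126 (0.82 ± 0.17, adjusted p = 0.00345), and Cacna1b 325, 287 and 281 (0.77 ± 0.23, adjusted p = 0.0219). For these 3 genes every RIP library lay above every Input library, as for 25.5% of all genes. Cacna1d overlapped Input (0.61 ± 0.21, adjusted p = 0.0402) and lost its call with the replicate block (adjusted p = 0.0574). It also lost it without any of 8 libraries (all Input libraries, YTHDF2 RIP replicates 1 and 2, YTHDF3 RIP replicates 2 and 3 and YTHDF1 RIP replicate 3), at 0.47 to 0.64, and Cacna1b lost its call without Input replicates 2 or 3 or YTHDF2 RIP replicate 1, at 0.67 to 0.71. Of the sodium channel pores, Scn3a had 113, 90.2 and 86.0 (0.49 ± 0.22, adjusted p = 0.0978) and Scn9a 2.66, 2.84 and 3.82 (0.49 ± 0.26, adjusted p = 0.171), both above every Input library. Scn2a, with 386, 202 and 460.0, overlapped Input (0.19 ± 0.43, adjusted p = 0.764), as did Scn8a with 314, 211 and 330.2 (0.50 ± 0.37, adjusted p = 0.312), Scn1a with 87.8, 44.4 and 104 (1.15 ± 0.55, adjusted p = 0.123) and Scn7a with 0.532, 1.05 and 0.224 (1.07 ± 0.78, adjusted p = 0.308). Cacna1a, with 286, 222 and 383, stood above Input without passing the test (0.85 ± 0.32, adjusted p = 0.0593), and Cacna1e, with 437, 277 and 554, overlapped it (0.67 ± 0.42, adjusted p = 0.241). That these genes missed the threshold does not show that they were not bound.

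**Figure D3:**
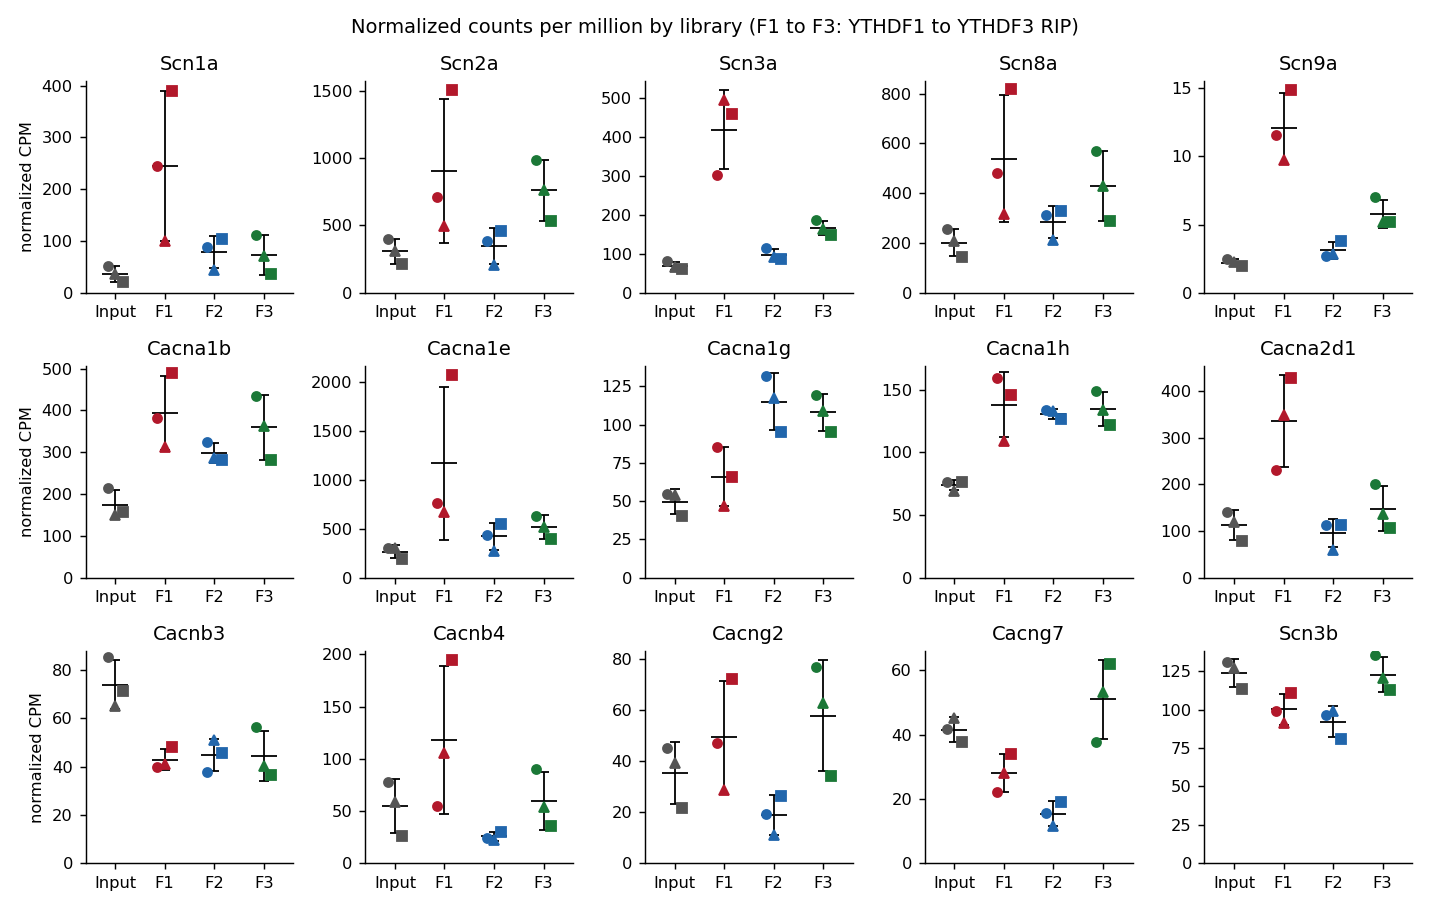
Normalized CPM (y axis, from 0) of 15 member genes in Input and the YTHDF1, YTHDF2 and YTHDF3 RIPs (F1 to F3), with circles, triangles and squares for replicates 1, 2 and 3 and the mean ± SD in black. The sodium channel pores and Cacna1e have their highest mean with YTHDF1, Cacna1g in the YTHDF2 and YTHDF3 RIPs, and Cacnb3 lies below Input in every RIP library.

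The auxiliary subunits were divided. In the fit over all groups the enriched members were Cacna2d1 and Cacna2d3 with YTHDF1. They are alpha2delta subunits, extracellular proteins that bring calcium channels to the synapse. Cacna2d1 had 141, 120.1 and 78.0 normalized CPM in Input and 230.3, 349 and 427 with YTHDF1 (1.57 ± 0.35, adjusted p = 0.00267), and Cacna2d3 rose by 1.03 ± 0.24 (adjusted p = 0.00348). Both calls were lost with the length trend removed, at 0.54 for Cacna2d1 (adjusted p = 0.14) and 0.38 for Cacna2d3 (adjusted p = 0.178), and that for Cacna2d3 also with the 2 groups alone and the block (adjusted p = 0.0604). With YTHDF2 Cacna2d1 had 113, 60.4 and 114 (-0.24 ± 0.34), and with YTHDF3 201, 137 and 107 (0.39 ± 0.34), both overlapping Input and not called, although Cacna2d1 was called with YTHDF3 when that RIP and Input were fitted alone with the block.

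Of the calcium channel beta subunits, Cacnb3 was the single member depleted in all 3 RIPs. It had 85.3, 65.3 and 71.3 normalized CPM in Input, 39.7, 41.0 and 47.9 with YTHDF1, 37.7, 50.8 and 45.8 with YTHDF2 and 56.4, 40.1 and 36.7 with YTHDF3. Every RIP library lay below every Input library, and the log2 fold changes were -0.79 ± 0.20 (adjusted p = 0.00643), -0.72 ± 0.20 (adjusted p = 0.0162) and -0.74 ± 0.20 (adjusted p = 0.0121). The YTHDF2 call was lost without Input replicate 1 or YTHDF2 RIP replicate 1 (-0.61 and -0.62), and the YTHDF3 call without Input replicate 1 or YTHDF3 RIP replicates 2 or 3 (-0.62 to -0.67). With the 2 groups alone and the block the calls with YTHDF1 and YTHDF2 were lost and that with YTHDF3 was kept. Cacnb1, the beta subunit also found in skeletal muscle, had 77.8, 64.5 and 63.4 in Input and 38.9, 35.7 and 48.8 with YTHDF2 (-0.74 ± 0.25, adjusted p = 0.0365). Its YTHDF1 RIP libraries, at 52.2, 52.1 and 77.0, overlapped Input (-0.18 ± 0.24), and its YTHDF3 RIP libraries, at 60.2, 44.0 and 32.7, lay below Input without a call (-0.59 ± 0.24, adjusted p = 0.0757). The YTHDF2 call for Cacnb1 was lost without Input replicates 1 or 2, YTHDF2 RIP replicates 1 or 2, or YTHDF3 RIP replicate 2 (-0.64 to -0.78). Cacnb4, the beta subunit missing in the epileptic lethargic mouse, had 77.9, 58.8 and 26.3 in Input, 54.1, 106 and 194 with YTHDF1, 24.2, 22.1 and 29.9 with YTHDF2 and 90.0, 53.8 and 35.4 with YTHDF3, and it was called against Input in none of them (1.12 ± 0.49, -1.10 ± 0.50 and 0.14 ± 0.49).

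With YTHDF3, 0 of the 6 gamma subunits were called with the replicate block over all groups. When the YTHDF3 RIP and Input were fitted alone with the block, 5 were called. In the fit over all groups without the block, Cacng7 was the one gamma subunit called against Input. This TARP had 41.6, 45.3 and 37.6 normalized CPM in Input and 15.7, 11.4 and 19.0 with YTHDF2, the largest fall among the members at -1.43 ± 0.25 (adjusted p = 0.00144). With YTHDF1 it had 22.0, 28.2 and 33.8, below every Input library (-0.57 ± 0.24, adjusted p = 0.068), and it was called there with the replicate block (adjusted p = 0.0491). With YTHDF3 it had 37.8, 53.4 and 62.1 and overlapped Input (0.30 ± 0.24, adjusted p = 0.352). Cacng2, the TARP known as stargazin, had 45, 39 and 21.7 in Input, 46.8, 28.5 and 72.2 with YTHDF1, 19.3, 10.8 and 26.4 with YTHDF2 and 76.6, 62.6 and 33.9 with YTHDF3, overlapping Input in each (0.48 ± 0.43, -0.90 ± 0.44 and 0.71 ± 0.43). With YTHDF3, however, it lay above the Input of the same lysate in all 3 pairs. In the fit of the YTHDF3 RIP and Input alone with the block, Cacng2 (0.76, adjusted p = 2.83e-07), Cacng4 (0.70), Cacng5 (0.76), Cacng8 (0.82) and Cacng7 (0.33, adjusted p = 0.0316) were enriched and Cacng3 was not called (-0.32). In that fit 36.5% of all genes were enriched and 32.3% depleted. The YTHDF3 RIP and Input are the groups whose same-numbered libraries deviated together. The log2 fold changes of the other 4 gamma subunits ran from -0.90 to 0.76 over the 3 RIPs.

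The beta subunits of sodium channels, which are also cell adhesion molecules, were not enriched in any RIP. No call was made for Scn3b. It had 131, 127 and 113 in Input, 98.9, 91.0 and 111 with YTHDF1 (-0.31 ± 0.16), 96.3, 99.4 and 80.7 with YTHDF2 (-0.43 ± 0.16, adjusted p = 0.052) and 135, 120.4 and 113 with YTHDF3 (-0.01 ± 0.16). Over the 3 RIPs, in the fit over all groups, 3 members were enriched in all (Cacna1b, Cacna1d and Cacna1h), Cacnb3 was depleted in all, and 12 members were called in none. No member was enriched in one RIP and depleted in another in that fit.

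A direct comparison of the RIPs, called at 2-fold and an adjusted p of 0.05, placed 9 members, Scn7a among them, higher with YTHDF1 than with YTHDF2 and 0 lower, where 11.4% of all genes were higher and 6.13% lower. The differences on the log2 scale were 2.22 ± 0.51 for Cacnb4 (adjusted p = 0.00754), 2.12 ± 0.22 for Scn3a (adjusted p = 7.77e-05), 1.95 ± 0.25 for Scn9a (adjusted p = 0.000247) and 1.81 ± 0.35 for Cacna2d1 (adjusted p = 0.00271). Scn1a (1.63 ± 0.55), Cacna1e (1.47 ± 0.43), Cacng2 (1.38 ± 0.44) and Scn2a (1.37 ± 0.44) followed, with adjusted p between 0.0247 and 0.0468. The libraries of the 2 RIPs overlapped for Scn1a and were apart for the other 7 of these. Of all genes, 20.6% were apart and higher with YTHDF1. Cacnb4, Scn3a, Scn9a and Cacna2d1 stayed past the threshold whichever library was left out. The others lost their call without single libraries, Cacna1e without 3 (YTHDF1 RIP replicate 3, YTHDF2 RIP replicates 1 and 2; 0.69 to 1.50), Scn2a without 5 (0.72 to 1.46), Cacng2 without 6 (0.93 to 1.43) and Scn1a without 8 (1.07 to 1.89). Without YTHDF1 RIP replicate 3, 4 members differed, and without YTHDF3 RIP replicate 2, 5. Scn7a was not called with the replicate block (adjusted p = 0.0899). With the length trend removed, 6 members were higher and 1 lower (all genes, 10.5% and 6.43%). Cacna1e (0.23), Scn1a (1.1), Scn2a (0.72) and Scn7a then lost their calls, Cacng7 became higher and Cacna1g became lower with YTHDF1 than with YTHDF2 (-1.22, adjusted p = 0.00287), against -0.80 before.

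The YTHDF1 RIP held more than the YTHDF3 RIP of 5 members and less of 0 (all genes, 11% higher and 3.62% lower): Scn7a, kept by the filter through the YTHDF1 RIP, Scn1a by 1.75 ± 0.55 (adjusted p = 0.0409), Scn3a by 1.34 ± 0.22 (adjusted p = 0.00148), Cacna2d1 by 1.18 ± 0.34 (adjusted p = 0.029) and Scn9a by 1.06 ± 0.24 (adjusted p = 0.00839). With the length trend removed the calls for Scn1a, Scn3a, Cacna2d1 and Scn9a were lost and none but Scn7a differed. Only the Scn3a call was kept whichever library was left out, and the count fell to 2 without YTHDF1 RIP replicate 3, to 1 without YTHDF3 RIP replicate 2 and to 2 without YTHDF3 RIP replicate 3. With the replicate block Scn1a was not called (adjusted p = 0.054), and 0 members were called when these 2 groups were fitted alone with the block (all genes, 1.95% higher and 0.6% lower). Against the YTHDF3 RIP the YTHDF2 RIP held less of Cacng7, by -1.73 ± 0.25 (adjusted p = 0.00477), and of Cacng2, by -1.61 ± 0.44 (adjusted p = 0.0469), and more of 0 members (all genes, 3.97% higher and 1.17% lower). The libraries were apart for both TARPs, as they were in this direction for 14.1% of all genes. The Cacng2 call was lost with the replicate block (adjusted p = 0.0658) and without any of 9 libraries (-1.34 to -1.94), and the Cacng7 call was kept. The 3 comparisons with Input share the same Input libraries, so the values of a gene in them are not independent.

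The make-up of the families was compared between the RIPs and Input. As a share of the summed sodium channel pore mRNA per kilobase, Scn2a made up 52.5% ± 1.15 (SD, n = 3) in Input, 42.2% ± 6.25 with YTHDF1, 44.2% ± 5.07 with YTHDF2 and 55.7% ± 0.37 with YTHDF3. Scn8a made up 28.0% ± 0.338, 20.9% ± 2.08, 30.2% ± 2.28 and 25.2% ± 0.914, and Scn3a 12.2% ± 2.25, 22.8% ± 11.5, 13.2% ± 4.10 and 12.6% ± 2.52. The YTHDF1 RIP shares of all 3 genes lay apart from those of Input, for Scn3a by a narrow margin (14.8% at the lowest in the RIP). Scn2a and Scn8a were also apart from Input in the other RIPs. Scn2a was lower and Scn8a higher with YTHDF2, and Scn2a was higher and Scn8a lower with YTHDF3. Scn1a took 6.73% ± 1.17 in Input and 13% ± 4.27 and 11.4% ± 1.49 with YTHDF1 and YTHDF2, both apart from Input, and 5.79% ± 1.46 with YTHDF3. Among the calcium channel beta subunits Cacnb3 led in Input with 44.3% ± 4.59, while Cacnb4 held 14.0% ± 5.06. With YTHDF1 Cacnb3 stood at 27.3% ± 5.69 and Cacnb4 at 30.3% ± 9.71, each apart from Input. With YTHDF3 they stood at 35.3% ± 4.76 and 20.1% ± 2.59, in the same directions and also apart from Input. With YTHDF2 Cacnb3 stood at 44.0% ± 7.06 and Cacnb4 at 11.1% ± 0.822, both overlapping Input. With 3 libraries against 3, an exact permutation test of such a share cannot go below p = 0.1, so none was run.

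**Figure D4:**
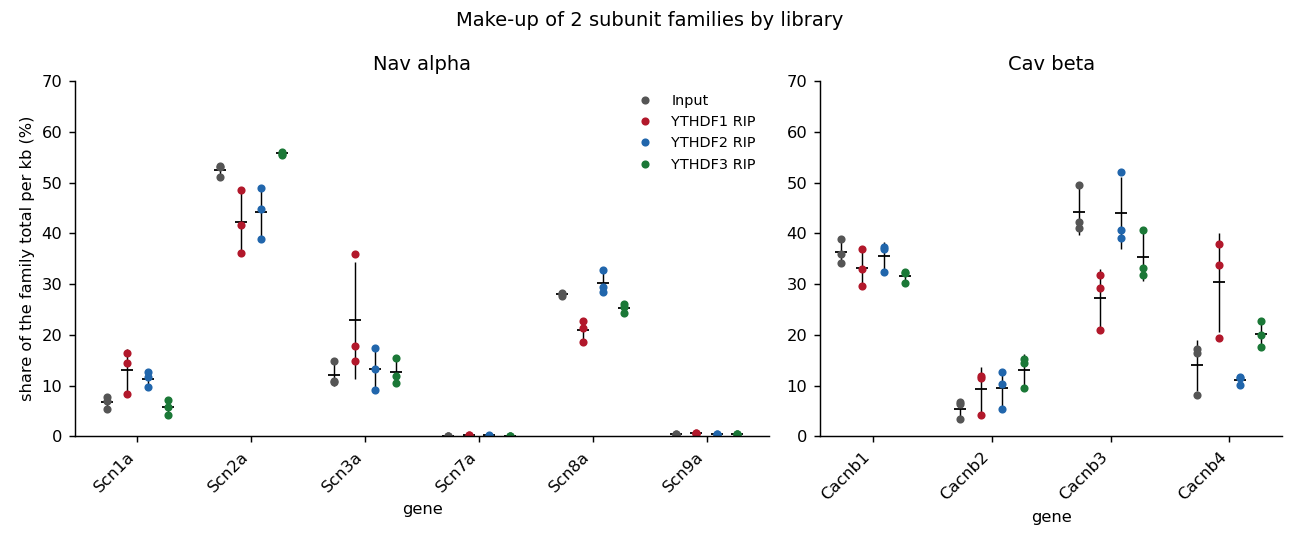
Share of each gene in the summed normalized CPM per kilobase of its subunit family (y axis, percent), for the named sodium channel pores (left) and calcium channel beta subunits (right), with a point for each library and the mean ± SD in black. The YTHDF1 RIP has a lower share of Scn2a, Scn8a and Cacnb3 and a higher share of Scn3a and Cacnb4 than Input. The YTHDF3 RIP also has a lower share of Scn8a and Cacnb3 and a higher share of Cacnb4.

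Pore and auxiliary subunit genes also differ in length. The median exonic length was 12310 bases for pore genes, 4656 for auxiliary genes and 3927.5 for all tested genes, and all 15 pore genes were longer than the last of these. Over the 32 members, Spearman's rho between exonic length and log2 fold change was 0.65, 0.57 and 0.72 with YTHDF1, YTHDF2 and YTHDF3. Over all 16820 genes it was 0.46, 0.38 and 0.53. These are descriptions across genes that share libraries, and the values over members include Scn7a, kept by the filter through the YTHDF1 RIP. RIP RNA was taken from beads and Input RNA from lysate, and the part such handling plays was not tested. When the trend with length in each library was removed, the enriched and depleted members numbered 5, Scn7a among them, and 3 with YTHDF1 (all genes, 24.5% and 22.9%), 1 and 5 with YTHDF2 (13.5% and 16.8%) and 3 and 2 with YTHDF3 (14.3% and 18%). Scn1a (1.85), Scn3a (1.56) and Scn9a (1.38) stayed enriched with YTHDF1, Cacna1g (0.84) with YTHDF2, and Scn3a (0.64) and Scn9a (0.75) with YTHDF3. Cacna1c, with 21191 exonic bases among the longest members, turned from enriched to depleted with YTHDF1 (-0.51, adjusted p = 0.0353) and lost its call with YTHDF3 (-0.07). Cacng8 became enriched with YTHDF1 and YTHDF3 (0.95 and 1.15), and Scn3b depleted with YTHDF1 and YTHDF2 (-0.57 and -0.62). Cacnb3 remained depleted in all 3 RIPs (-0.78, -0.78 and -0.74). The median of the pore subunits minus that of the auxiliary subunits went from 1.06 to 0.19 with YTHDF1, from 1.08 to 1.01 with YTHDF2 and from 0.87 to 0.67 with YTHDF3. Whether length itself or another property of long transcripts moves with the RIPs was not tested.

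**Figure D5:**
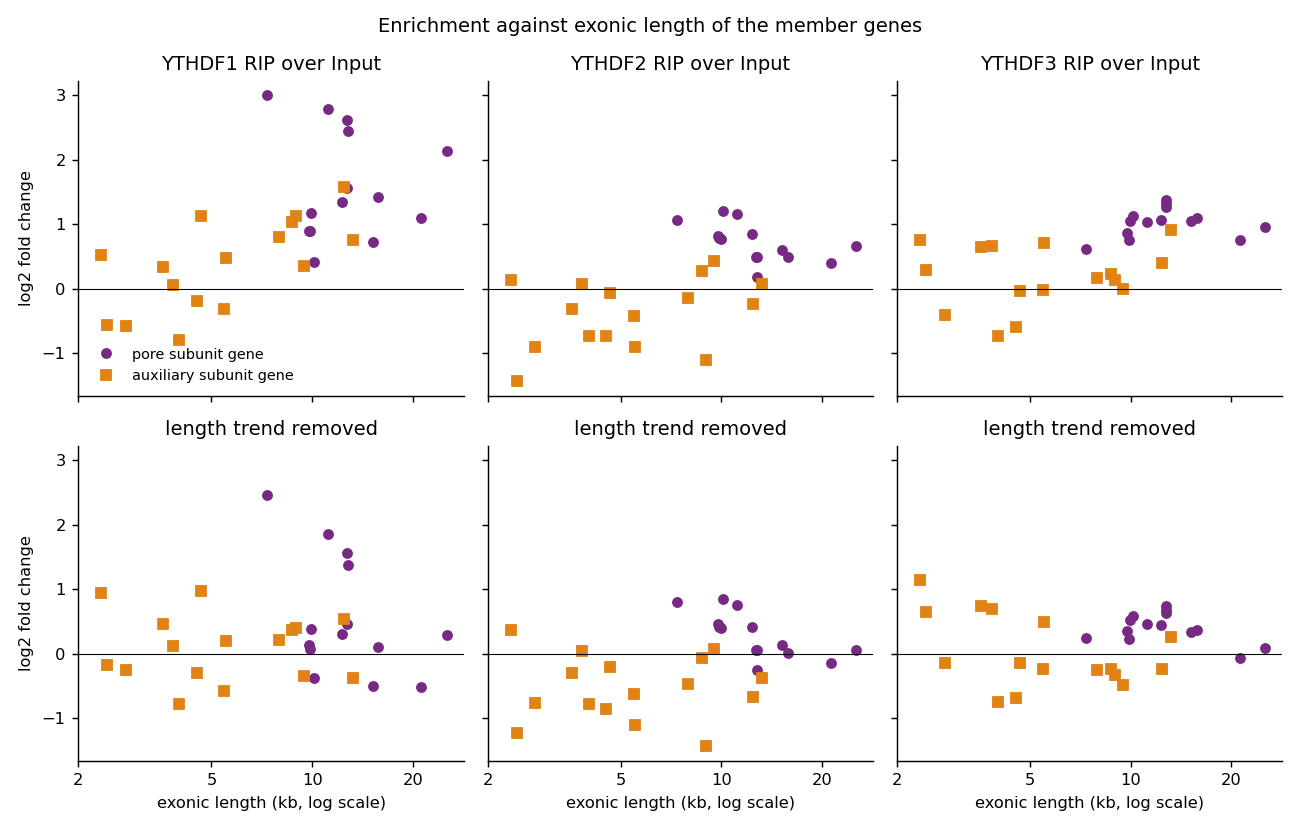
Log2 fold change over Input (y axis) against exonic length (x axis, kilobases on a log scale) for the members reported by name, as measured (top) and after the length trend of all genes was removed (bottom), with pore genes as circles and auxiliary genes as squares. The auxiliary genes lie mostly to the left of the pore genes, and in the lower YTHDF1 panel Scn1a, Scn3a, Scn7a and Scn9a stand at 1.38 or higher.

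GC content and GGACT density were described in the same way. GC content of the transcript had a rho of -0.61 with the YTHDF1 log2 fold change over the 32 members and -0.75 over the 15 pore genes, whose lowest values belonged to Scn7a (40.2%), Scn3a (42.1%), Scn9a (42.4%), Scn1a (43.3%) and Scn2a (43.4%) and the highest to Cacna1h (60.0%). Over all 13337 genes with a transcript it was -0.09. The values over members and pore genes include Scn7a, which was kept by the filter through the YTHDF1 RIP, and were not computed without it. Those with YTHDF1 are therefore a description and support nothing. Over the pore genes rho with GC was 0.37 with YTHDF2 and -0.24 with YTHDF3. GGACT per kilobase had a rho of -0.13 with the YTHDF1 fold change and 0.06 with the YTHDF2 fold change over the 32 members. The number of GGACT copies says nothing about which of them are methylated in these cells, which was not measured in these libraries.

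Genes whose proteins bind or regulate these channels, or form the related NALCN complex, were examined as a list of 24, of which 21 were tested. With YTHDF1 11 were enriched and 1 depleted with a median of 1.02, with YTHDF2 4 and 2 with a median of -0.01, and with YTHDF3 9 and 0 with a median of 0.81, to be read against the shares of all genes given above. The anchors of sodium channels at the axon initial segment were among them: Ank3 (ankyrin-G) rose by 2.64 ± 0.23, 0.90 ± 0.22 and 1.42 ± 0.22 with YTHDF1, YTHDF2 and YTHDF3, and Sptbn4 (beta-IV spectrin) by 2.39 ± 0.27, 2.10 ± 0.26 and 1.22 ± 0.26. The intracellular FGFs, which bind the tail of sodium channel pores, went different ways. Fgf14 rose by 3.05 ± 0.30 with YTHDF1 (adjusted p = 1.6e-05), while Fgf13 was depleted there (-1.35 ± 0.23, adjusted p = 0.00048) and with YTHDF2 (-1.02 ± 0.23), and Fgf12 with YTHDF2 (-1.30 ± 0.38). Of the active zone proteins that tether calcium channels, Rims2 rose by 1.69 ± 0.25 with YTHDF1 and 0.81 ± 0.24 with YTHDF3, and Rims1 by 1.02 ± 0.35 with YTHDF1. The NALCN sodium leak channel complex was divided. Unc79 was enriched in all 3 RIPs (2.20 ± 0.21, 0.77 ± 0.20 and 1.1 ± 0.20) and Fam155a with YTHDF1 and YTHDF3. The channel Nalcn (-0.08, -0.30 and -0.04) and Unc80 were called in none. With the length trend removed, Unc79 stayed enriched with YTHDF1 only, and Nalcn was depleted there. With the length trend removed, the enriched and depleted genes of the list numbered 8 and 2, 1 and 2, and 2 and 1, and Sptbn4 stayed enriched in all 3 RIPs.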

How the data were processed

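RNA from 3 RIPs and Input was sequenced with 3 libraries per group, with unique molecular identifiers. For each replicate the lysates of pooled wells were split among the 3 RIPs, with a single Input. The authors deposited raw counts per gene, made with UMI-tools 1.1.1, cutadapt 3.4, STAR 2.7.7a and featureCounts 2.0.1 (Ensembl 97 exons, GRCm38, reverse strand, multimapping and overlapping reads counted). The files with the authors' own DESeq2 comparisons hold fold changes and p-values, of which only the gene list, biotype and name were used, with a mean signal per gene that the authors had made by dividing counts by size factors.

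Genes with a mean of at least 10 counts after median-ratio scaling were kept (16820 of 55573). Counts were TMM-normalized and fitted with edgeR 4.0.16 (R 4.3.3) by the quasi-likelihood test over 4 groups and 12 libraries, with Benjamini-Hochberg adjustment over all tested genes. Standard errors are the log2 fold change divided by the root of the F statistic. Calls took an adjusted p of at most 0.05, with a log2 change of at least 0.32 against Input and 2-fold between RIPs. The length trend was removed per library with loess (span 0.3). Tables were handled with Python 3.11.15, pandas 2.3.3 and scipy 1.17.1. The code was tested on simulated data. Alternatives were DESeq2 1.42.0, other scalings, filters, the replicate block, the 2 groups alone, and leaving out each library. P-values measure the spread between these libraries, and total counts of 6020072 to 38909592 set the precision. Values per library are given for members called without overlap (at least 100 mean normalized counts, the 6 largest and 6 smallest changes per RIP), the 5 highest in Input, those called between RIPs, and 1 uncalled auxiliary subunit per ion. Other genes with values per library in the text were chosen after their values were seen.

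The replicate numbers were taken to pair libraries by the shared lysate. Same-numbered deviations from the group means correlated by 0.539 to 0.835 between Input and YTHDF3 RIP. They correlated by -0.329 to 0.0895 between Input and YTHDF1 RIP and -0.326 to 0.186 between Input and YTHDF2 RIP. Libraries of unlike number reached 0.0118, 0.471 and 0.568 in these 3 pairs of groups. Against Input the pairing thus showed for the YTHDF3 RIP only, and block results for YTHDF1 and YTHDF2 against Input rest on the numbers alone. Some members are not reported here by name and enter the counts and medians only. The members and lists were chosen with earlier results of these data known. Sequences came from GENCODE M21 transcripts (GRCm38, based on Ensembl 96), using the longest coding transcript.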

Additional observations from a re-analysis of the deposited data

Results flagged for a closer look

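The differences between RIPs were tested directly, and 16 of them passed. The YTHDF1 RIP exceeded the YTHDF2 RIP on the log2 scale for Cacnb4 (2.22), Scn3a (2.12), Scn9a (1.95), Scn7a (1.92), Cacna2d1 (1.81), Scn1a (1.63), Cacna1e (1.47), Cacng2 (1.38) and Scn2a (1.37). It exceeded the YTHDF3 RIP for Scn7a (2.38), Scn1a (1.75), Scn3a (1.34), Cacna2d1 (1.18) and Scn9a (1.06). The YTHDF2 RIP was below the YTHDF3 RIP for Cacng7 (-1.73) and Cacng2 (-1.61). Scn7a was kept by the filter on low counts through the YTHDF1 RIP, so its differences support nothing. Reads were also present for genes outside the deposited list. Scn10a and Scn11a, pores of peripheral sensory neurons, each had 18 reads summed over the YTHDF1 RIP libraries, against 0 and 2 over the Input libraries. Replicate 1 of the YTHDF1 RIP alone held 8 of those of Scn10a and 12 of those of Scn11a. The sums are not adjusted for depth, which differed between the groups, and were not tested. The YTHDF2 and YTHDF3 RIPs had 4 and 1 reads of Scn10a and 4 and 7 of Scn11a. With groups of 3, no library was tested as an outlier.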

How the results depend on the processing

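Leaving out 1 library at a time, enriched members numbered 10 to 17 with YTHDF1, 2 to 5 with YTHDF2 and 6 to 12 with YTHDF3, depleted members 1 to 4, 1 to 4 and 0 to 3, and the pore minus auxiliary median was 0.83 to 1.27, 1.00 to 1.28 and 0.79 to 0.92. Members that differed numbered 4 to 11 for YTHDF1 against YTHDF2, 1 to 6 for YTHDF1 against YTHDF3 and 1 to 3 for YTHDF2 against YTHDF3.

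With the replicate block, which pairs libraries of the same number, 2 members were depleted with YTHDF1 and 1 differed between YTHDF2 and YTHDF3. Besides the calls named in the report, it changed no other. With the block and the 2 groups alone, 5 were enriched and 0 depleted with YTHDF1, 21 were enriched with YTHDF3, and 0 and 1 differed for YTHDF1 and YTHDF2 against YTHDF3. With the length trend removed, 5, 1 and 3 members were enriched, 3 and 5 were depleted with YTHDF1 and YTHDF2, the median differences were 0.19 and 0.67 for YTHDF1 and YTHDF3, and 1 differed between YTHDF1 and YTHDF3. With the length trend removed and the block, 5, 1 and 4 were enriched, 3 and 1 were depleted with YTHDF1 and YTHDF3, the median differences were 0.11, 0.93 and 0.67, and 1 differed in each comparison with YTHDF3. Cacna1c with YTHDF1 turned to -0.51 in both of these fits, Cacna1c with YTHDF3 to -0.069 and -0.071, and Cacna1d with YTHDF1 to -0.50 and -0.52.

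Depleted members with YTHDF1 numbered 2 with DESeq2, without a filter and with the 2 groups alone, 3 at a minimum mean of 50, 4 with TMM of protein-coding genes and 5 by library size alone. Without a filter 2 and 18 members were enriched with YTHDF2 and YTHDF3, 7 and 1 were depleted, and 8 differed between YTHDF2 and YTHDF3. By library size alone 1 was depleted with YTHDF3, 5 differed between YTHDF1 and YTHDF2 and 7 between YTHDF2 and YTHDF3. With TMM of protein-coding genes 5 and 3 differed for YTHDF1 against YTHDF2 and YTHDF3, and at a minimum mean of 50, 3 for the latter. With the 2 groups alone 4, 2 and 5 differed for YTHDF1 against YTHDF2, YTHDF1 against YTHDF3 and YTHDF2 against YTHDF3. The shares of all genes called are not given for the fits of this paragraph or for those that leave out a library. A change in these counts can therefore not be told apart from a change over all genes. The cause of these changes was not tested. Depth limits Scn7a and Cacna2d4, which had few reads in Input.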
